A study of Rattus norvegicus with 399 samples.

Results

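Solute carriers are membrane proteins that move nutrients, ions, metabolites and drugs into or out of cells and organelles. The members described here were chosen by name: the probes of the panel whose gene symbol begins with Slc and a number or with Slco, leaving out Slc51a and the mitochondrial Slc25 family. They came to 61 probes for 61 genes among the 2654 probes of the panel. The rule uses symbols only, but it was set with earlier results of these data known.

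The family has a division of labour in the organs sampled. In the liver, Slco and Slc22 proteins and the sodium-coupled bile acid carrier Slc10a1 (NTCP) sit on the blood side of the hepatocyte and take up bile acids, bilirubin, hormones and drugs from plasma. In the kidney, Slc22 carriers of the proximal tubule secrete organic anions and cations, while other carriers on the urine side recover amino acids, citrate, sulfate and phosphate. Other members carry glucose, metals, fatty acids or nucleotide sugars in nearly every cell.

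RNA was measured with a TempO-Seq assay, in which a pair of short probes is ligated on each target RNA and the ligated product is sequenced and counted. The animals were female Sprague-Dawley rats with an age of 9 weeks on the labels, and heart, kidney, the left lobe of the liver, lung and ovary were taken on study day 5. The rats had been exposed to 1,2-dichlorobenzene (1,2-DCB) at 0 (controls), 1, 10, 30, 100, 250 or 500 ppm or to 1,4-dichlorobenzene (1,4-DCB) at 0 (controls), 1, 10, 50, 150, 400 or 800 ppm. The labels name no genetic change, and the sources used here do not give the route of exposure. A tissue had 5 animals at each exposed concentration and 10 controls, except that the 1,2-DCB lung at 500 ppm had 4, the 1,2-DCB kidney had 9 controls, the 1,4-DCB kidney at 1 ppm had 4, and the 1,4-DCB lung had 4 at 1, 10 and 150 ppm, 3 at 400 ppm and 8 controls.

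The 390 libraries used held 1202354 to 69774071 counts each (median 22555404); the submitters had set aside 9 of 399. In bulk tissue, fewer cells of a type and less RNA per cell cannot be told apart. The marker lists of heart muscle, hepatocyte, ovary and kidney tubule peaked in the tissue of that name: the summed control level of the 4 heart muscle probes was 344606 counts per 1000000 counts of the library (CPM) in heart and at most 9.94 CPM elsewhere. The 9 hepatocyte probes summed to 587816 CPM in liver, the 9 ovary probes to 13585 CPM in ovary, and the 4 kidney tubule probes to 3210 CPM in kidney. Outside liver the hepatocyte probes summed to at most 6045 CPM, in ovary. The lung epithelium list had 0 probes on the panel, so the lung label was not checked in that way. Some libraries stood apart from the others of their tissue. They were the 1,2-DCB hearts of rats F101 and F102 at 1 ppm, the 1,2-DCB kidney of F201 at 10 ppm, the control kidney of rat F1 and the control hearts of F1 and F7 in the 1,4-DCB study, and, for a group of members only, the control livers of F7 and F8 in the 1,2-DCB study. Results that rest on them are given with and without them. Some ovaries outside this list also correlated less with other libraries. The 1,2-DCB ovary of F103 at 1 ppm had a median correlation of 0.9671, against 0.9816 for its fit. The 1,4-DCB ovaries of F502 at 400 ppm and F604 at 800 ppm had 0.9685 and 0.97, against 0.9801.

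Among control animals, the kidney had the most members at 1 CPM or more. The summed level of the 61 members had a median of 6821 CPM in kidney (19 libraries), 3103 CPM in ovary (20), 2017 CPM in liver (20), 1774 CPM in lung (18) and 845 CPM in heart (20), all as CPM of the library total. With TMM factors the order changed, with liver highest at a median of 12541 and kidney at 5445 normalized CPM. Of the 61 members, 41 averaged at least 1 CPM in kidney, 31 in ovary, 30 in lung, and 26 in liver and in heart. Probes differ in how well they capture their targets, so levels are compared here between tissues for the same gene and not between genes.

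The choice of scaling moved cross-tissue values strongly: the median of all probes in control liver minus control lung was -0.21 on the log2 scale with TMM factors and -3.68 with library totals. Tissue patterns are therefore given where they held under TMM, library totals and DESeq2 size factors alike. Of 52 members tested in controls, 27 (51.9%) were called higher in the same tissue than in each of the 4 others under these 3 scalings, against 49.2% of all 2447 probes tested. With TMM alone they were 45 of 52, against 78.7% of all probes. Called here and below means a Benjamini-Hochberg adjusted p under 0.05 in edgeR's quasi-likelihood test. Kidney accounted for 16 of the 52 (30.8%, against 7.27% of all probes), ovary for 6 (11.5%, against 15%), liver for 4 (7.69%, against 5.68%), lung for 1 (1.92%, against 13.6%) and heart for 0 (against 7.64%; with TMM alone heart had 2 of 52 and with DESeq2 size factors 3).

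The 16 kidney members included organic ion carriers. Slc22a6 (OAT1), the basolateral uptake carrier for organic anions, averaged 91.4 ± 15.2 CPM in kidney (SD, n = 19) and 0.0613 ± 0.15 CPM in lung, the next tissue. Slc22a8 (OAT3), which has overlapping anion substrates, averaged 111.5 ± 26.3 CPM in kidney and had no count in any of the 20 control livers. Slc22a2 (OCT2), the cation carrier of the tubule, averaged 56.6 ± 10.8 CPM in kidney against 0.48 ± 0.292 CPM in lung. The kidney ranges did not overlap those of any other tissue for these 3 genes.

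Kidney carriers for amino acids and organic acids followed the same pattern. Slc7a12, a neutral amino acid carrier, averaged 532.5 ± 119.7 CPM in kidney and at most 0.481 ± 1.07 CPM elsewhere. Slc6a18, an amino acid carrier of the brush border, averaged 41.3 ± 6.45 CPM in kidney, and Slc13a2 (NaDC1), which recovers citrate and succinate from urine, averaged 51.1 ± 8.98 CPM. Slc16a7 (MCT2), a carrier of lactate and ketone bodies, averaged 258.6 ± 62.4 CPM in kidney and 27.9 ± 3.84 CPM in lung. The other kidney members were Slc11a2, Slc1a5, Slc22a5, Slc2a5, Slc34a3, Slc35a1, Slc5a6, Slc6a8 and Slc7a13; the smallest contrast among the 16 was that of the CMP-sialic acid carrier Slc35a1, at 209.6 ± 20.9 CPM in kidney and 170.2 ± 12.8 CPM in ovary.

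The 4 liver members were uptake carriers of the hepatocyte surface and a sulfate carrier. Slc10a1 averaged 154.4 ± 38.5 CPM in liver (SD, n = 20) and 0.927 ± 0.652 CPM in kidney. Slco1b2 (OATP1B2), the rodent carrier for bilirubin, bile acids and many drugs, averaged 131.5 ± 16.6 CPM in liver and 0.204 ± 0.386 CPM in kidney. Slco1a1 (OATP1A1), another organic anion carrier, averaged 91.1 ± 10.7 CPM in liver and 1.06 ± 0.525 CPM in lung. Slc13a4, which carries sulfate, averaged 34 ± 8.68 CPM in liver and 9.61 ± 8.4 CPM in lung, where the highest control lung reached 41.5 CPM and so overlapped the liver range of 20.9 to 56.1 CPM.

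The ovary members included a bile acid carrier that is best known from the ileum. Slc10a2 (ASBT) averaged 349.1 ± 135.2 CPM in ovary (SD, n = 20) and 20.4 ± 4.21 CPM in kidney, and had no count in any control heart or lung. The sulfate carrier Slc26a2 averaged 115.1 ± 25.6 CPM in ovary and 42.7 ± 4.95 CPM in lung. Slc27a3, an acyl-CoA synthetase of the fatty acid transport family, averaged 155.9 ± 25 CPM in ovary and 15.5 ± 3.39 CPM in lung. Slc13a5, the citrate carrier, averaged 12.4 ± 5.36 CPM in ovary and 0.841 ± 0.489 CPM in kidney. The zinc importer Slc39a10 and the cationic amino acid carrier Slc7a1 completed the ovary group, and the glutamate carrier Slc1a3 was the lung member, at 18.7 ± 3.02 CPM in lung and 13.1 ± 5.25 CPM in ovary.

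Some members were measured well above 1 CPM in several tissues, among them Slc39a1 (ZIP1, a zinc importer) and Slc27a2 (FATP2, a very long chain acyl-CoA synthetase). Slc39a1 averaged 1304 ± 130.1 CPM in ovary, 622.4 ± 92.4 CPM in lung, 417.9 ± 34.4 CPM in heart, 396.2 ± 53.3 CPM in kidney and 114.1 ± 14.3 CPM in liver. Slc27a2 averaged 3582 ± 319.8 CPM in kidney, 1119 ± 139.02 CPM in liver and 91.4 ± 20.1 CPM in lung. The order of tissues for these genes depended on the scaling. With TMM factors Slc39a1 was highest in liver, at a mean of 701.2 normalized CPM against 552.9 in ovary. Slc27a2 then averaged 6875 normalized CPM in liver and 2866 in kidney. The map of control levels by tissue shows 59 members as CPM of the library total.

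**Figure D1:**
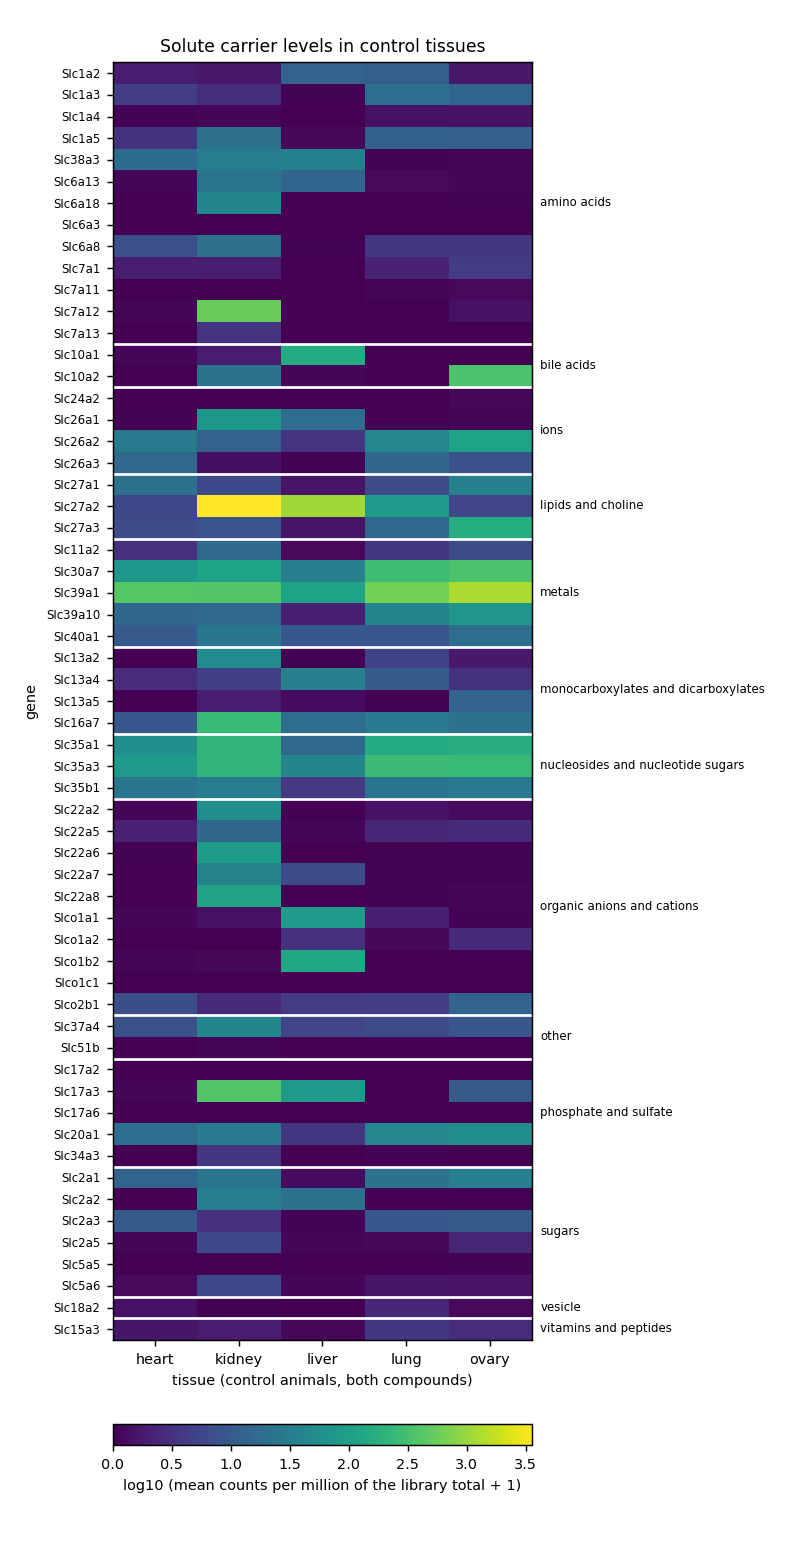
Mean level of 59 solute carrier genes (rows, grouped by what the family carries) in control animals of 5 tissues (columns), as log10 of CPM plus 1; the colour bar gives the scale. Among the organic anion and cation carriers, Slc22a2, Slc22a6 and Slc22a8 are brightest in kidney and Slco1a1 and Slco1b2 in liver. Others of that class differ: Slco2b1 is highest in ovary, and Slc22a7 is found in kidney and liver. The bile acid carrier Slc10a2 is brightest in ovary.

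Promoter sequences are shown for 5 members that appear in the exposure results and differ in tissue pattern, so that the sequence at the start of these genes can be read beside their levels. The sequences are the 300 bases from 250 before to 50 after the gene start in RefSeq on GRCr8, read along the strand of the gene. Capitals mark the HNF1 recognition core GTTAAT or its reverse complement ATTAAC. HNF1 is a transcription factor of liver and kidney tubule, and this motif was chosen after the values were seen. It was found on either strand in 9 of the 46 members with a promoter in the table (19.6%) and in 7.45% of all 33469 promoters. Searched the same way on both strands, the antioxidant response element TGACNNNGC was in 5 of 46 (10.9%, against 12.1% of all promoters), and the ATF4 element TGATGCAA was in 1 of 46 (2.17%, against 0.795%). Of the 5 promoters shown, that of Slc17a3 has no match to the HNF1 core. The 5 were picked by hand, so how many of them match says nothing of the family. A match is a description of letters and not a binding site.
Slc10a1, chr6:106357895-106358194, minus strand: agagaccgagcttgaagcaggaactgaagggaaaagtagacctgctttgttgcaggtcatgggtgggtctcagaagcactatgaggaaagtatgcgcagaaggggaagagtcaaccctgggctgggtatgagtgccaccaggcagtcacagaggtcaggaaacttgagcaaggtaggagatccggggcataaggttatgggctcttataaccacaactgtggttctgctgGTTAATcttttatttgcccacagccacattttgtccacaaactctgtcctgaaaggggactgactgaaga
Slco1b2, chr4:176282334-176282633, plus strand: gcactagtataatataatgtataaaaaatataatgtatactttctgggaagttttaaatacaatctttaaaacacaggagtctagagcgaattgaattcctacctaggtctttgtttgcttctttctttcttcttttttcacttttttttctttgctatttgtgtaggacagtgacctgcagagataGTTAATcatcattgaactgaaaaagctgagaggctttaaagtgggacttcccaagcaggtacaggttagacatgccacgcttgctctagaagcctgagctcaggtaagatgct
Slc7a12, chr2:88868054-88868353, minus strand: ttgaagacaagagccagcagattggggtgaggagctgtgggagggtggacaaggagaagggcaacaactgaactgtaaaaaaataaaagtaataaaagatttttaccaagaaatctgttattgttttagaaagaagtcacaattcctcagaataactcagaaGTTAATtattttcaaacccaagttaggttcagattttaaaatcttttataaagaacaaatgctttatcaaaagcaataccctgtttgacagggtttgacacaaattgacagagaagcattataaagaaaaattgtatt
Slc10a2, chr16:91087839-91088138, plus strand: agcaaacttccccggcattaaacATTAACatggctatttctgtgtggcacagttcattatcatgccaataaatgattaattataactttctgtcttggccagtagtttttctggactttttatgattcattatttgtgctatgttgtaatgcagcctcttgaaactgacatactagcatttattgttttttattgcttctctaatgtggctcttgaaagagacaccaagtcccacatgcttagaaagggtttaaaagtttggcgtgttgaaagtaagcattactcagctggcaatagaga
Slc17a3, chr17:41723060-41723359, minus strand: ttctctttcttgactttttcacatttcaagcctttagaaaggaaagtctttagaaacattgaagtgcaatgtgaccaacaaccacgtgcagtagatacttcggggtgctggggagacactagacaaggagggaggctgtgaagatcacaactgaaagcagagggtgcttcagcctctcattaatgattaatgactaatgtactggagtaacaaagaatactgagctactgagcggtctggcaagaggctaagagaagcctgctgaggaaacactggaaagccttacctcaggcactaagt

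Exposure values below are normalized CPM, that is, CPM with the library total scaled by its TMM factor within a tissue and compound. Of the 61 members, 56 passed the filter on low counts in at least 1 of the 10 fits, each fit holding the 7 concentrations of a compound in a tissue. Slc17a2, Slc17a6, Slc5a5, Slc6a3 and Slco1c1 passed in none. Over the 60 comparisons with controls 37 members were called at least once, and 19 members that were tested were never called.

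The largest set of solute carrier changes was in the liver at 500 ppm of 1,2-DCB, and it included uptake carriers of the hepatocyte surface. Of 35 members tested, 20 were called (57.1%), against 67.8% of all 2019 probes tested. Of these 7 were higher and 13 lower, while 35% of all probes were higher and 32.7% lower; with library totals 13 members were called higher and 10 lower. The median log2 fold change was -0.33 over the 35 members and 0.04 over all probes. In 11 members every exposed liver lay beyond every control liver, which held for 36.4% of all probes. Among the organic anion carriers 5 fell.

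Slco1b2 had 70.9, 49.8, 45.3, 34.9 and 36.3 normalized CPM in the livers at 500 ppm, against a lowest of 113.5, a median of 141.9 and a highest of 156.2 in the 10 control livers. Every exposed liver was below every control. Slco1b2 fell by 1.55 ± 0.13 on the log2 scale (SE, adjusted p = 4.12e-13). Slco1a1 had 45.5, 42.1, 32.9, 38.4 and 37.9 normalized CPM at 500 ppm, against 83.4, 90.5 and 110.9 as lowest, median and highest control, again without overlap, and fell by 1.25 ± 0.10 (adjusted p = 1.71e-14). The other anion carriers that fell were Slco2b1, by 1.38 ± 0.19, the probe listed as Slco1a2, by 1.50 ± 0.21, and Slc22a7 (OAT2), by 1.15 ± 0.19, with adjusted p from 4.57e-08 to 1.92e-06. Slco1a2 is an older symbol that matches both Slco1a4 and Slco1a5 in RefSeq, so which of these genes the probe reads is uncertain.

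Control livers F7 and F8 bear on Slc10a1, the bile acid carrier. Slc10a1 had 153.9, 116.5, 111.8, 85.1 and 103.3 normalized CPM at 500 ppm, against a lowest of 33.6, a median of 161.6 and a highest of 203.8 in controls. The groups overlapped. Control livers F7 and F8 were the 2 lowest controls, F8 at 33.6 normalized CPM, and the log2 fold change of -0.39 ± 0.21 was not called (adjusted p = 0.0954). Without F7 and F8 it was -0.58 and was called (adjusted p = 2.3e-05). These 2 livers were set apart after their low values in members such as Slc10a1 were seen. Calls of Slc10a1 without them are therefore not separate support for a change. At 250 ppm Slc10a1 had 177.5, 208.1, 206.9, 226 and 238.9 normalized CPM, and the log2 fold change was 0.50 (adjusted p = 0.0622) with all controls and 0.31 (adjusted p = 0.0403) without F7 and F8. With TMM scaling Slc10a1 was above the control median in every liver at 250 ppm and below it in every liver at 500 ppm. Library totals raised the median log2 fold change of all probes by 0.401 at 500 ppm and by 0.329 at 250 ppm. The place of Slc10a1 against controls, above all at 500 ppm, may therefore depend on the scaling.

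Carriers of amino acids and GABA were among the members that fell in liver. Slc1a2 (GLT-1), a glutamate carrier, had 3.47, 0.872, 1.8, 0.495 and 1.51 normalized CPM at 500 ppm, against a lowest of 5.74, a median of 11.5 and a highest of 21 in controls. No exposed liver reached the lowest control, and Slc1a2 fell by 3.03 ± 0.35 on the log2 scale (adjusted p = 1.67e-09). Slc38a3 (SNAT3), a glutamine carrier, had 25.8, 23.6, 23.1, 23.4 and 26.8 normalized CPM, against 36, 38.2 and 43.5 as lowest, median and highest control, and fell by 0.65 ± 0.08 (adjusted p = 1.46e-09). Slc6a13 (GAT2), which carries GABA and taurine, fell by 0.88 ± 0.12 (adjusted p = 2.09e-08), also with every exposed liver below every control.

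The members that rose at 500 ppm included phosphate and glucose carriers. Slc20a1 (PiT-1), the sodium-phosphate carrier found in most cells, had 8.57, 9.77, 12.9, 13.8 and 12.8 normalized CPM, against a lowest of 2.54, a median of 2.9 and a highest of 3.31 in controls. The groups were far apart, and the rise of 1.99 ± 0.12 had the smallest p among the members (adjusted p = 9.02e-18). Slc17a3 (NPT4), which exports urate and organic anions, had 160.9, 143.9, 186.4, 200.98 and 175.2 normalized CPM, against 38.3, 89.8 and 118.3 as lowest, median and highest control. It rose by 1.06 ± 0.15 (adjusted p = 1.07e-07), and by 0.89 without F7 and F8.

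Of the glucose carriers, Slc2a1 (GLUT1), the carrier of most tissues and a minor one in hepatocytes, had 1.35, 1.4, 1.29, 1.09 and 2.6 normalized CPM at 500 ppm, against a lowest of 0.0604, a median of 0.209 and a highest of 0.452 in controls, a rise of 2.80 ± 0.31 (adjusted p = 4.13e-10). Slc2a2 (GLUT2), the main hepatocyte carrier, had 20.3, 13, 16.5, 12.6 and 15.7 normalized CPM against 10.1, 22.9 and 27.5 as lowest, median and highest control. The Slc2a2 groups overlapped, and the log2 fold change was -0.44 ± 0.17 with TMM scaling (adjusted p = 0.0187) and -0.05 with library totals (adjusted p = 0.806); the call was also lost without F602 (-0.37) or F604 (-0.36). Slc37a4, which moves glucose 6-phosphate into the endoplasmic reticulum, rose by 0.34 ± 0.14 (adjusted p = 0.0322), and the zinc importer Slc39a10 rose by 0.60 ± 0.27 (adjusted p = 0.0471); without F7 and F8 both calls were lost, at 0.24 (adjusted p = 0.0925) and 0.37 (adjusted p = 0.109). Slc37a4 also lost its call without F601 (0.24) or F602 (0.34), and Slc39a10 without F603 (0.64), F604 (0.44) or F605 (0.58).

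Further calls were the sulfate carrier Slc13a4, which fell by 0.98 ± 0.17, and the zinc carrier Slc30a7, which rose by 0.21 ± 0.07. Slc27a2 and the nucleotide sugar carrier Slc35a3 had log2 fold changes of -0.33 ± 0.08 and -0.34 ± 0.07 with TMM scaling, and of 0.07 and 0.05 with library totals, so their direction depended on the scaling. Library totals moved the median of all probes in this comparison by 0.401 on the log2 scale. They kept the calls of the other members described at 500 ppm except Slc2a2, but Slc38a3 stood at -0.25, Slc6a13 at -0.485, Slc13a4 at -0.58, Slc22a7 at -0.76, Slc30a7 at 0.62, Slc37a4 at 0.73 and Slc39a10 at 1.01. Markers of other cells were lower beside these results: the summed level of the 6 immune probes (5 of 5 tested called lower) was 28.2 to 39.4 normalized CPM at 500 ppm against 44.8 to 78.2 in controls, that of the 5 fibroblast probes was 37.4 to 86 against 87.6 to 161.1, and of the 9 hepatocyte probes 8 were called lower and 1 higher (summed level 505453 to 642609 against 564262 to 813957). Their part in the results was not tested.

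The cystine-glutamate exchanger Slc7a11 (xCT) and Slc22a8 were too low in liver to be tested, and are given because their control counts were 0; they were picked after the values were seen. Slc7a11 had 0, 10, 19, 19 and 22 counts in the 5 livers at 500 ppm of 1,2-DCB and 0 counts in each of the 10 controls. The pooled level was at least 36.5-fold higher, taking 3 counts over the control group as the floor. Bounds of this kind cover counting error only and not the spread between animals. Over the control livers of both compounds the highest Slc7a11 level was 0.057 CPM, so not every control liver of the series was at 0. Slc22a8 had 15 counts over 4 of the 5 livers at 500 ppm of 1,2-DCB and 31 counts over all 5 livers at 800 ppm of 1,4-DCB, 15 of them in 1 liver, against 0 counts in the 10 controls of each compound. Those pooled levels were at least 7.83-fold higher with 1,2-DCB and at least 16.9-fold higher with 1,4-DCB by the same floor, but stayed at 0.0576 normalized CPM with 1,2-DCB and 0.117 with 1,4-DCB.

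**Figure D2:**
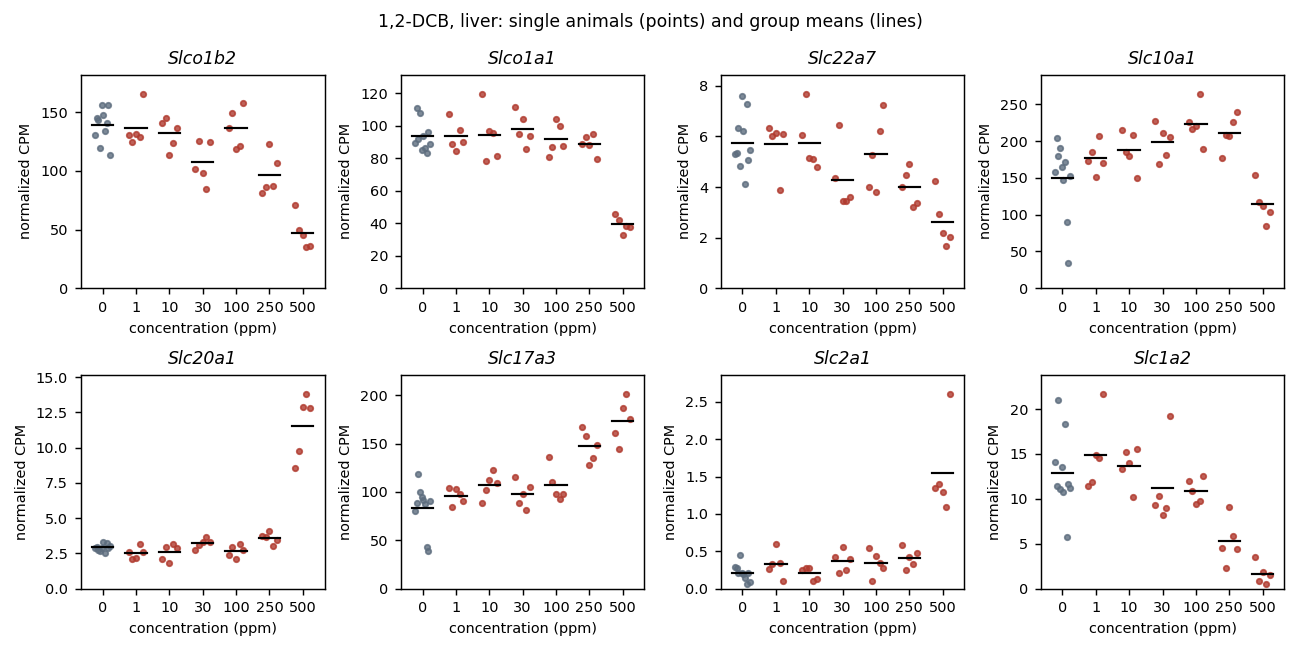
Normalized CPM (vertical axis) of 8 solute carrier genes in liver by 1,2-DCB concentration in ppm (horizontal axis, evenly spaced); points are single animals, grey for controls and red for exposed, and lines are group means. With TMM scaling Slco1b2 and Slc1a2 are lower at 250 and 500 ppm, Slco1a1 at 500 ppm, and Slc20a1 and Slc2a1 stand apart at 500 ppm; the 2 low control points of Slc10a1 and Slc17a3 are F7 and F8.

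Changes at lower concentrations of 1,2-DCB were found in liver and in heart. In liver at 100 ppm Slc37a4 was the only called member of 35 tested (2.86%), against 2.13% of all probes. It had 6.36, 7.61, 6.43, 8.52 and 7.47 normalized CPM, against a lowest of 2.16, a median of 4.44 and a highest of 5.35 in controls, a rise of 0.78 ± 0.14 (adjusted p = 0.00231), and 0.67 without F7 and F8 (adjusted p = 0.00434). Its log2 fold change was 0.43 ± 0.14 at 250 ppm and 0.34 ± 0.14 at 500 ppm, and the difference between concentrations was not tested.

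At 250 ppm 8 of 35 members were called in liver (22.9%, against 24.8% of all probes). Of these 3 were higher and 5 lower, while 13.5% of all probes were higher and 11.2% lower; with library totals 13 members were higher and 1 lower. Slc17a3 had 167.3, 158.1, 127.4, 135.4 and 148.2 normalized CPM, above every control, and rose by 0.82 ± 0.15 (adjusted p = 6.63e-05); without F7 and F8 the rise was 0.65. Slco1b2 had 81, 86.5, 122.99, 86.7 and 106.97 normalized CPM, 4 of 5 below every control, and fell by 0.52 ± 0.12 (adjusted p = 0.00186). Slc38a3 fell by 0.34 ± 0.08. Slc1a2 fell by 1.298 ± 0.31, and Slc22a7 fell by 0.53 ± 0.19 (adjusted p = 0.0313, and 0.056 without F7 and F8). Slc35a3 was at -0.20 ± 0.07 with TMM scaling and 0.13 with library totals. With library totals the calls of Slco1b2 (-0.195, adjusted p = 0.18), Slc38a3 (-0.017, adjusted p = 0.883) and Slc22a7 (-0.19, adjusted p = 0.375) were lost as well, so of the falls at 250 ppm that of Slc1a2 was the one called under both scalings (-1.02 with library totals). The call of Slc22a7 was also lost without F501, F504 or F505 (-0.525, -0.45 and -0.47), and that of Slc35a3 without F502 or F504 (-0.18 and -0.14). Slc37a4 stood at 0.76 with library totals, and its call was lost without F7 and F8 (adjusted p = 0.0607) or without F505 (0.39).

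In heart the calls at 1 ppm of 1,2-DCB rested on the libraries of F101 and F102. Slc30a7 rose by 0.33 ± 0.08 and Slc27a1 (FATP1), a fatty acid transport protein of muscle, fell by 0.62 ± 0.18, 2 of 29 members called (6.9%) against 5.64% of all probes. F101 and F102 had 7.75 and 9.99 normalized CPM of Slc27a1, the other hearts at 1 ppm 18.7, 21.2 and 19.2, and the controls 17.2 to 30.5. Without these hearts neither gene was called (adjusted p = 0.998 for both), and library totals put Slc30a7 at 0.625 with them. The lowest summed heart muscle marker level at 1 ppm was 57153 normalized CPM against a control range of 257205 to 408407, and the highest smooth muscle level was 1083 against 49.1 to 98.1.

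Liver was also the tissue with the most members called for the other compound. At 800 ppm of 1,4-DCB 12 of 37 members were called (32.4%), against 34.9% of all 2019 probes. Of these 4 were higher and 8 lower, while 19.5% of all probes were higher and 15.4% lower; with library totals 7 members were higher and 3 lower, and with DESeq2 size factors 2 higher and 9 lower. In 3 members every exposed liver lay beyond every control, against 13% of all probes. Slc13a4 had 19.8, 19.2, 21.2, 20.1 and 16 normalized CPM, against a lowest of 22.4, a median of 34.2 and a highest of 53.9 in controls. Every exposed liver was below every control, and Slc13a4 fell by 0.89 ± 0.17 (adjusted p = 5.99e-05). Slc1a2 had 7.25, 5.65, 8.82, 4.89 and 8.81 normalized CPM, against 8.23, 14 and 17.6 as lowest, median and highest control. It fell by 0.92 ± 0.20 (adjusted p = 0.000428), with 3 livers below every control. Among the members that rose, Slc17a3 had 115.6, 111.2, 111.5, 101.1 and 115.8 normalized CPM at 800 ppm, against 76, 83.5 and 98.7 as lowest, median and highest control, a rise of 0.38 ± 0.10 without overlap (adjusted p = 0.00203).

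Smaller log2 fold changes at 800 ppm that were called lower were those of Slco1a1 (-0.29 ± 0.08), Slc35a3 (-0.28 ± 0.07), the zinc importer Slc39a1 (-0.26 ± 0.07), Slc38a3 (-0.22 ± 0.07) and the iron exporter Slc40a1, ferroportin (-0.31 ± 0.11). With library totals these 5 kept their sign and were not called, at -0.19, -0.19, -0.175, -0.13 and -0.22. Slc38a3 was also not called without F604 (-0.16), nor Slc40a1 without F601 (-0.25). Slc27a2 rose by 0.18 ± 0.07 and the fructose carrier Slc2a5 by 1.28 ± 0.52, over a control median of 0.102 normalized CPM. Slc2a5 lost its call without each of the 5 exposed animals in turn, at 1.18 to 1.35, and Slc27a2 without all but F604, at 0.15 to 0.17. Slc27a2 was also not called with DESeq2 (adjusted p = 0.0568), nor Slc2a5 with DESeq2 size factors (adjusted p = 0.0502). At 400 ppm 4 of 37 members were called (10.8%, against 6.44% of all probes): Slc13a4 (-0.58 ± 0.17), Slco1a1 (-0.28 ± 0.08) and Slc2a2 (-0.37 ± 0.11) were among them, all lower, and with library totals these 3 were not called (-0.496, -0.20 and -0.29), while 4 members were called higher and 0 lower; without the liver of F502 the count was 0, and without that of F503 it was 2. Beside the 800 ppm results the 6 immune probes summed to 27.6 to 47 normalized CPM against 53.4 to 88.1 in controls; their part was not tested.

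The highest concentrations of the compounds differ, so their liver values are set side by side without a test. Slco1b2 had a log2 fold change of -1.55 ± 0.13 at 500 ppm of 1,2-DCB and -0.18 ± 0.10 at 800 ppm of 1,4-DCB. Slc20a1 stood at 1.99 ± 0.12 with 1,2-DCB and 0.30 ± 0.15 with 1,4-DCB, Slc2a1 at 2.80 ± 0.31 with 1,2-DCB and 0.05 ± 0.36 with 1,4-DCB, and Slc22a7 at -1.15 ± 0.19 with 1,2-DCB and 0.11 ± 0.20 with 1,4-DCB. Slc13a4 was at -0.98 ± 0.17 with 1,2-DCB and -0.89 ± 0.17 with 1,4-DCB.

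**Figure D3:**
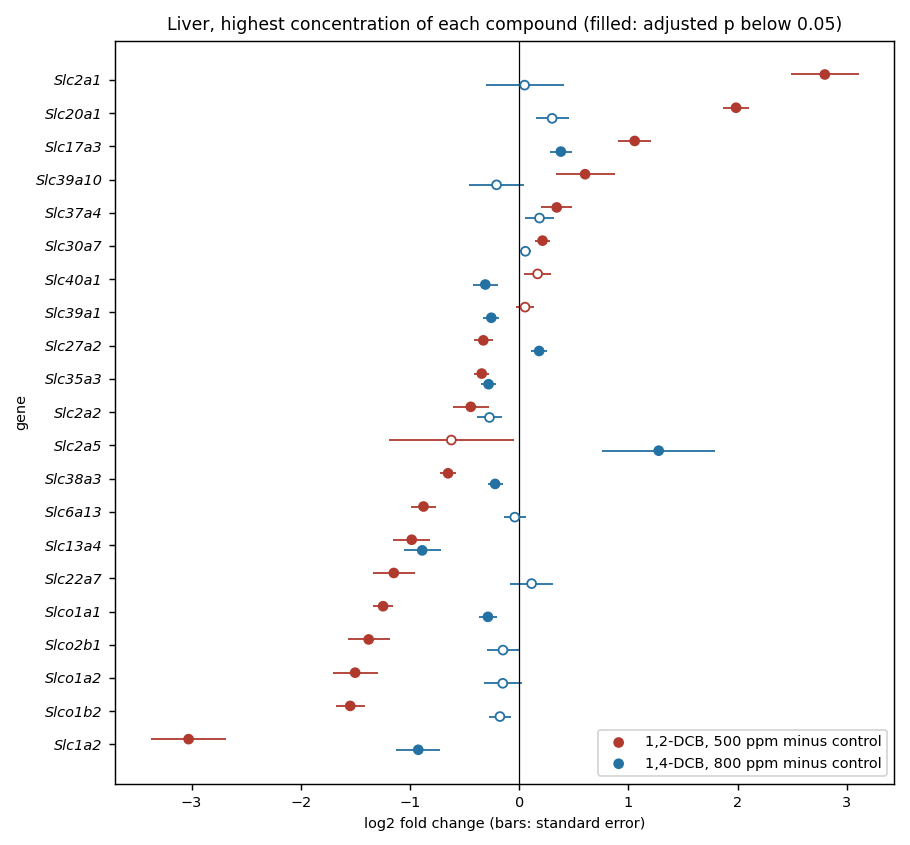
Log2 fold change (horizontal axis, exposed minus control; bars are standard errors) in liver of solute carrier genes (vertical axis) called with either compound, at 500 ppm of 1,2-DCB (red) and 800 ppm of 1,4-DCB (blue); filled points have an adjusted p below 0.05. Slco1b2, Slc20a1 and Slc2a1 are far from 0 with 1,2-DCB and near 0 with 1,4-DCB, whereas Slc13a4 lies at about the same place with both.

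In the kidney at 500 ppm of 1,2-DCB, members were called in both directions. Of 51 members tested 11 were called (21.6%), against 16.4% of all 2363 probes. Of these 7 were higher and 4 lower, while 8.72% of all probes were higher and 7.7% lower; with library totals 5 members were higher and 10 lower. Every exposed kidney lay beyond every control in 2 members, against 5.59% of all probes. The organic cation carrier Slc22a2 and the anion carrier Slc22a7 fell, and the sulfate, citrate and glucose carriers Slc13a4, Slc13a2 and Slc2a2 rose.

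Slc22a2 had 46.9, 29.3, 28, 28.8 and 30.1 normalized CPM at 500 ppm, against a lowest of 45.7, a median of 61.7 and a highest of 80.4 in the 9 control kidneys. All but the kidney of F601 were below every control, and Slc22a2 fell by 0.95 ± 0.19 (adjusted p = 0.000384). Slc22a7 had 24.2, 33.1, 26.4, 24.2 and 21.7 normalized CPM, against 25.2, 39.8 and 58.2 as lowest, median and highest control. The groups overlapped, with 3 of 5 exposed kidneys below every control, and it fell by 0.61 ± 0.17 (adjusted p = 0.0127). Slc22a6 and Slc22a8, the anion carriers with a kidney pattern in controls, were tested and not called, at -0.14 ± 0.22 and 0.20 ± 0.20.

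Slc13a4 had 10.3, 6.56, 4.47, 6.52 and 7.27 normalized CPM at 500 ppm, against a lowest of 2.45, a median of 3.79 and a highest of 4.22 in controls. Every exposed kidney was above every control, and the rise was 0.98 ± 0.17 (adjusted p = 9.01e-05). Slc2a2, which returns reabsorbed glucose to blood, had 47.2, 38, 49.2, 62.4 and 45.6 normalized CPM, against 20.2, 29.9 and 39.8 as lowest, median and highest control. All but the kidney at 38 were above every control, and the rise was 0.73 ± 0.14 (adjusted p = 0.000278). Slc13a2 rose by 0.54 ± 0.15 (adjusted p = 0.0119), and by 0.42 without F604, when it was not called (adjusted p = 0.0784).

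Slc7a12 had 300.2, 475.0, 411.8, 287.4 and 226.7 normalized CPM at 500 ppm, against a lowest of 341.1, a median of 554.3 and a highest of 802.6 in controls. It fell by 0.76 ± 0.22 (adjusted p = 0.0135), and by 0.64 without F605, when it was not called (adjusted p = 0.0573). Slc5a6, the vitamin carrier for biotin and pantothenate, had 4.54, 1.31, 1.55, 1.74 and 2.76 normalized CPM against 3.75, 5.23 and 9.03, and fell by 1.305 ± 0.34 (adjusted p = 0.00695). Slc35a3 had 221.7, 280.6, 248.4, 265.7 and 227.2 normalized CPM against 202.7, 209.6 and 216.1, a small rise of 0.24 ± 0.05 without overlap (adjusted p = 0.000798). Slc1a5 (ASCT2), a glutamine carrier, rose by 0.51 ± 0.13, Slc17a3 by 0.50 ± 0.14 and Slc27a2 by 0.42 ± 0.13. Without F604 neither Slc17a3 (0.345) nor Slc27a2 (0.36) was called, and without F601 Slc27a2 (0.34) was not. With library totals Slc35a3 (0.13) and Slc1a5 (0.40) were no longer called.

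Summed marker levels differed beside these kidney values. The 6 immune probes summed to 320.2 to 475.5 normalized CPM at 500 ppm against 729.8 to 1020 in controls, with 4 called lower, and the 5 fibroblast probes to 292.2 to 489.8 against 681.7 to 1121, with 2 called lower. The 4 kidney tubule probes, which include Cyp4a2 more than once, summed to 4311 to 6876 against 1978 to 4536. Their part in the member results was not tested.

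**Figure D4:**
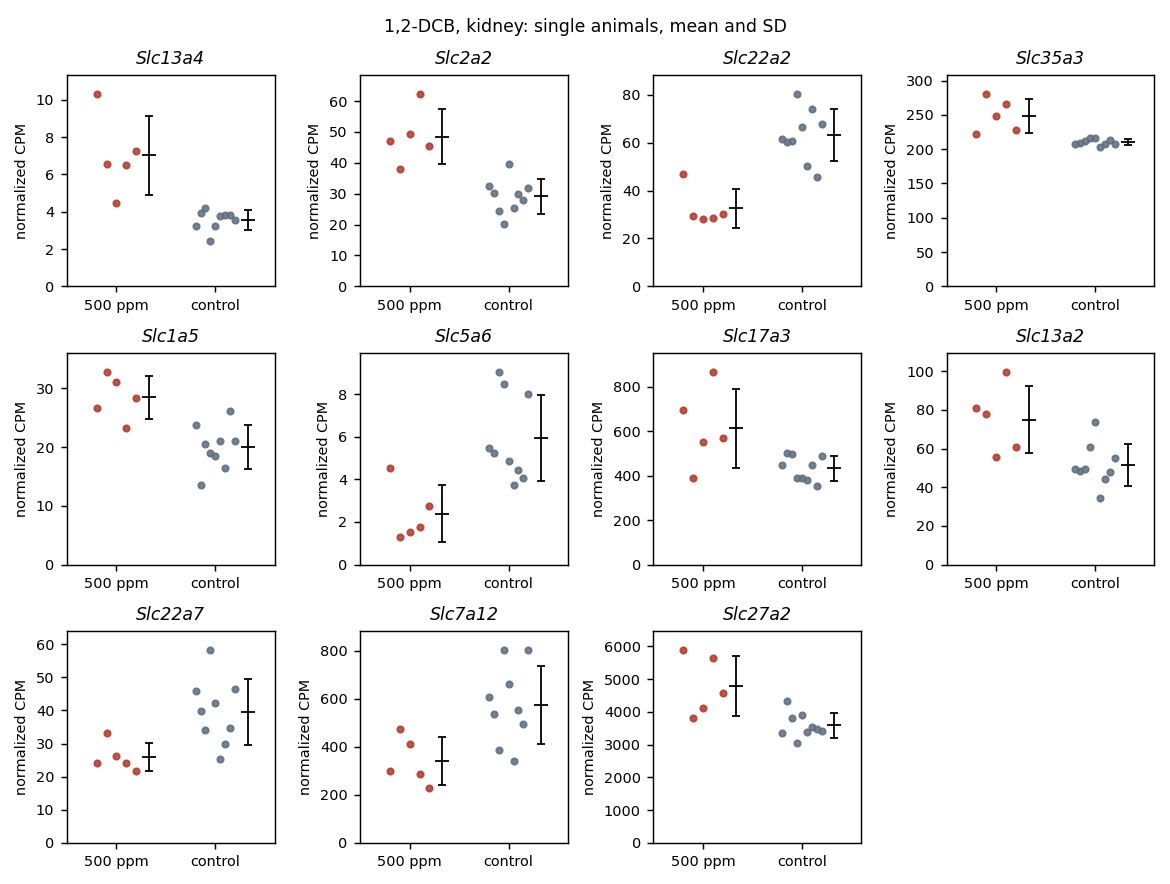
Normalized CPM (vertical axis) of the 11 solute carrier genes called in kidney at 500 ppm of 1,2-DCB; points are single animals, exposed (red, left) and control (grey, right), with the mean and SD beside them. Slc13a4 and Slc35a3 do not overlap between groups, and Slc22a2 overlaps through F601, at 46.9.

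With 1,4-DCB at 800 ppm no member of 49 tested in kidney was called in edgeR, against 5.03% of all 2325 probes; 8 members were under an unadjusted p of 0.05, and DESeq2 called 0. Without the control kidney of F1, 2 members were called, Slc1a5 at 0.44 (adjusted p = 0.042) and Slc17a3 at -0.43 (adjusted p = 0.0144).

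The liver and kidney of the same rats were then compared, by testing the liver change minus the kidney change. At 500 ppm of 1,2-DCB 18 of 53 members differed between the tissues, against 43.3% of all 2401 probes. Slc13a4 differed by -2.17 ± 0.24 (adjusted p = 1.28e-11), having fallen in liver and risen in kidney, and Slc2a2 by -1.39 ± 0.23 (adjusted p = 4e-07), called higher in kidney and, with TMM scaling, lower in liver. Slc35a3 differed by -0.80 ± 0.08, Slc20a1 by 1.75 ± 0.17, Slc2a1 by 2.31 ± 0.35 and Slc6a13 by -1.26 ± 0.21. With library totals these differences were -1.43 for Slc13a4, -0.66 for Slc2a2, 2.51 for Slc20a1, 3.02 for Slc2a1 and -0.52 for Slc6a13, all called, and -0.078 for Slc35a3, which was not (adjusted p = 0.592). At 800 ppm of 1,4-DCB 7 of 52 members differed, against 13.3% of all 2392 probes, and 4 with the rat as a replicate block. The values were -1.16 ± 0.28 for Slc13a4, -0.43 ± 0.10 for Slc35a3 and -0.89 ± 0.24 for Slc2a2, and these held with the block; with library totals that of Slc35a3 was -0.18 and was not called (adjusted p = 0.377). Slco1a1 (-1.41 ± 0.45, adjusted p = 0.137 with the block) and Slc17a3 (0.60 ± 0.19, adjusted p = 0.0853 with the block) lost their calls with it, as did Slco1a2 (-2.75 ± 0.90, adjusted p = 0.126 with the block). Slc22a8 was called too, but rests on the few liver counts given above.

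In the ovary at 800 ppm of 1,4-DCB the members called included a sulfate carrier, fatty acid carriers and the bile acid carrier Slc10a2. Of 43 members tested 6 were called (14%), against 8.47% of all 2386 probes; 3 rose and 3 fell, against 4.23% of all probes in each direction. Slc26a2 had 306.6, 237.7, 206.1, 179.6 and 179.1 normalized CPM, against a lowest of 61.8, a median of 106.03 and a highest of 138.03 in controls. Every exposed ovary was above every control, and the rise was 1.06 ± 0.17 (adjusted p = 9.72e-05).

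The fatty acid transport proteins Slc27a1 and Slc27a3 rose, with the ovary of F601 apart from the other 4. Slc27a1 had 38, 73.7, 73.1, 75.7 and 64.1 normalized CPM (F601 to F605), against 24.4, 34.2 and 50.1 as lowest, median and highest control, a rise of 0.88 ± 0.18 (adjusted p = 0.00173). Slc27a3 had 135.6, 313.8, 311.8, 332.9 and 257.9 normalized CPM against 120.5, 157.0 and 207.6, a rise of 0.75 ± 0.21 (adjusted p = 0.0191); its call was lost without F602, F603 or F604 (0.69, 0.70 and 0.66, each left out in turn). In both genes F601 lay within the control range and the other 4 ovaries above it.

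Slc10a2 had 320.0, 19.6, 21.6, 23.8 and 79.6 normalized CPM at 800 ppm, against a lowest of 225.8, a median of 345.1 and a highest of 603.7 in controls. F601 was again within the control range and the other 4 were below it. The log2 fold change was -1.99 ± 0.51 (adjusted p = 0.0123), and -3.35 without F601; without F602 it was -1.74 and was not called (adjusted p = 0.0501). Slc7a1 (CAT1), which carries arginine and lysine, had 2.05, 0.963, 1.39, 0.66 and 1.1 normalized CPM against 1.16, 3.38 and 7.66, a log2 fold change of -1.67 ± 0.42 (adjusted p = 0.0112). Slc18a2, the vesicular monoamine carrier, had 0 counts in the 5 exposed ovaries and counts in 6 of 10 controls, with a pooled control level of 0.455 normalized CPM. The pooled level of the exposed ovaries was at least 26.1-fold lower, taking 3 counts over the group as their floor. This bound covers counting error only and not the spread between controls, some of which also had 0 counts. The edgeR call of Slc18a2 (adjusted p = 0.0179) was lost without F602 (adjusted p = 0.0544) or F603 (adjusted p = 0.0521).

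The summed level of the 9 ovary marker probes was 18668 to 23337 normalized CPM at 800 ppm against 8785 to 16151 in controls, without overlap, with 3 of 9 called higher; its part in the member results was not tested. With 1,2-DCB at 500 ppm the citrate carrier Slc13a5 was called, 1 of 36 members (2.78%) against 2.91% of all probes. It had 3.17, 4.43, 3.84, 2.43 and 5.31 normalized CPM, against 4.31, 11.5 and 22.3 as lowest, median and highest control, a log2 fold change of -1.66 ± 0.37 (adjusted p = 0.00905). The 5 fibroblast probes summed to 1766 to 2856 normalized CPM there against 2696 to 5058 in controls, and their part was not tested. Side by side, Slc10a2 was at -1.20 ± 0.55 in these ovaries (adjusted p = 0.241) and Slc13a5 at -0.97 ± 0.33 with 1,4-DCB (adjusted p = 0.0622).

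**Figure D5:**
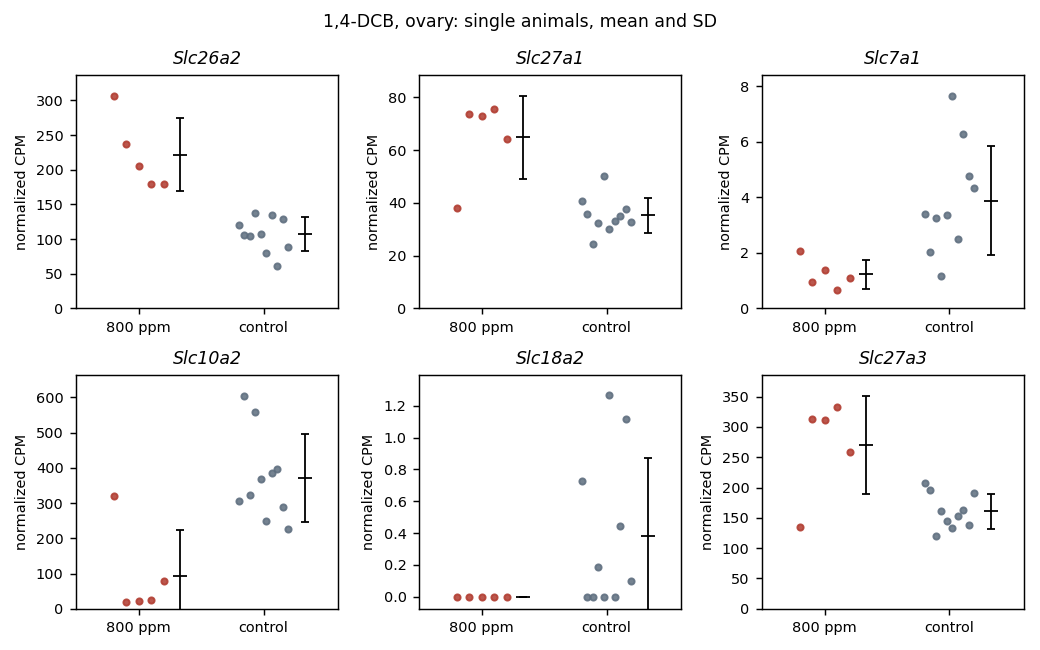
Normalized CPM (vertical axis) of the 6 solute carrier genes called in ovary at 800 ppm of 1,4-DCB; points are single animals, exposed (red, left, F601 to F605 from left to right) and control (grey, right), with the mean and SD beside them. F601 lies among the controls for Slc10a2, Slc27a1 and Slc27a3, and above them for Slc26a2.

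Heart and lung had few calls. In heart at 500 ppm of 1,2-DCB 2 of 29 members were called (6.9%), against 12% of all probes. The chloride-bicarbonate exchanger Slc26a3 had 22.4, 54, 23.3, 37.3 and 41.8 normalized CPM, against a lowest of 12.4, a median of 15.7 and a highest of 25 in controls, and rose by 1.08 ± 0.22 (adjusted p = 0.000423) with 3 hearts above every control. Slc5a6 rose by 2.12 ± 0.72 (adjusted p = 0.0462) over a control median of 0.0758 normalized CPM, and its call was lost with library totals (2.12, adjusted p = 0.0682) and without F601 (1.85), F602 (2.18) or F603 (1.82). Fibroblast markers summed to 776 to 1079 normalized CPM in these hearts against 2128 to 3455 in controls; their part was not tested.

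In heart at 800 ppm of 1,4-DCB Slc1a5 had 3.59, 3.76, 4.67, 3.37 and 3.2 normalized CPM, against a lowest of 1.4, a median of 1.89 and a highest of 3.1 in controls. It was the called member of 30 tested (3.33%, against 6.86% of all probes), with every exposed heart above every control and a rise of 0.82 ± 0.24 (adjusted p = 0.0274); without F601 (0.82), F602 (0.80) or F603 (0.72) it was not called, nor with library totals (0.75, adjusted p = 0.0726), and without control hearts F1 and F7 it was 0.83 (adjusted p = 0.0437). In lung Slc39a10 rose by 0.34 ± 0.10 at 500 ppm of 1,2-DCB, 1 of 36 members (2.78%, against 8.85%); it was not called without F603 (0.23) or F604 (0.33), nor with library totals (0.33, adjusted p = 0.149). At 800 ppm of 1,4-DCB Slc13a2 fell by 0.86 ± 0.22 and the creatine carrier Slc6a8 by 0.84 ± 0.25, 2 of 37 members (5.41%, against 5.91%). Slc6a8 had 2, 1.69, 1.73, 1.43 and 1.61 normalized CPM against 2.19, 3.22 and 3.46 in controls, without overlap. Slc13a2 was not called without F602 (-0.80) or F605 (-0.82), nor Slc6a8 without F602, F603, F604 or F605 (-0.84 to -0.79). Beside the lung values, the 5 fibroblast probes summed to 846 to 1189 normalized CPM at 500 ppm of 1,2-DCB against 1767 to 3173 in controls. The 4 probes of the list named for urothelium and papilla summed to 194139 to 288740 at 800 ppm of 1,4-DCB against 91941 to 191044 in controls. In control animals that list summed to 165826 CPM in lung and 7384 CPM in kidney, so it is not read here as a mark of those cells. The part of these lists was not tested.

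At 46 of the 50 lower concentrations no member was called in edgeR; between 0 and 7 members a comparison were under an unadjusted p of 0.05, and DESeq2 called 0 in each of them. Of all probes 0% to 0.381% were called there. The 2 compounds were compared by test at the concentrations they share, 1 and 10 ppm, in 5 tissues. Over these 10 comparisons 0 members differed in edgeR, with 0 to 7 a comparison under an unadjusted p of 0.05 and 0 called by DESeq2. Of all probes 1.03% differed in heart at 1 ppm, 1.17% in heart at 10 ppm and 0% in the other 8. The smallest adjusted p was 0.0668, for Slc27a1 in heart at 1 ppm, where 1,2-DCB minus 1,4-DCB was -0.75 with a 95% interval of -1.18 to -0.32, and F101 and F102 are among those hearts. The intervals had median half-widths between 0.45 in liver at 10 ppm and 0.92 in ovary; the widths of single members lay on either side of these medians.

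Other transport genes of the panel were counted for context. Of 13 ABC transporter probes tested in liver at 500 ppm of 1,2-DCB, 9 rose and 2 fell, with a median log2 fold change of 0.90, while 35% of all probes rose and 32.7% fell with a median of 0.04. Abcb11, Abcc3 and Abcc4 are given by value as a pick from these probes and do not stand for the list. In the same livers the canalicular bile salt exporter Abcb11 fell by 1.32 ± 0.08 (adjusted p = 7.75e-18). The basolateral exporters Abcc3 and Abcc4 rose by 2.90 ± 0.17 and 2.84 ± 0.40. At 800 ppm of 1,4-DCB 3 of 13 ABC probes rose and 2 fell, with a median of 0.095, while 19.5% of all probes rose and 15.4% fell. Abcc3 and Abcc4 rose there too, by 2.66 ± 0.22 and 2.52 ± 0.56, and Abcb11 was at -0.14 ± 0.06 (adjusted p = 0.0905). Set against the same shares of all probes, among the P-type ion pumps 1 rose and 1 fell of 4 tested in liver with 1,2-DCB, and 0 rose and 2 fell with 1,4-DCB.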

How the data were processed

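RNA was measured with the Rat S1500+ v1.2 TempO-Seq panel. The authors deposited attenuation-adjusted counts per probe for 399 libraries of 5 tissues; per the submitters' processing notes reads were aligned with Bowtie 1.3.1, and the sources used here name no genome build. The counts are whole numbers, and the probe of 1 member (Slc27a2) is a whole multiple of 7, so its counting error is larger than its count implies. Samples were grouped by the compound, concentration and tissue on the labels, and the 9 libraries marked as not used were left out. Library totals were 1202354 to 69774071 counts; intervals and floors cover counting error only, and probe counts without molecular identifiers are not independent molecules. The labels give separate animals, so replicates are rats.

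Counts were fitted in R 4.3.3 with edgeR 4.0.16 (TMM, filterByExpr, robust glmQLFit, glmQLFTest), the 7 groups of a tissue and compound together, with Benjamini-Hochberg adjustment over all probes tested in a comparison and a call under 0.05. Liver and kidney were fitted together per compound, controls of the 5 tissues together with compound as a covariate, and both compounds together per tissue. Rat numbers on the labels pair the tissues of a rat, so the rat as a replicate block was an alternative. Other alternatives were DESeq2 1.42.0, its size factors in edgeR, library totals, a mean of 20 CPM or no filter, and the unused libraries. Further ones were dividing out steps, fitting the top group and controls alone, and leaving out single animals or the libraries that stood apart (84 fits for both). Library totals, animals of lower groups and libraries apart were added after seeing the data. The scripts were tested on simulated data.

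Promoters came from RefSeq (GRCr8); 60 member symbols are current in RefSeq. The members, gene lists, classes and named-gene rule were chosen with earlier results of these data known. Named are up to 12 called members with the smallest p per tissue and compound at the top concentration, each member called lower down, the 5 highest control levels per tissue and up to 6 members with the smallest p in the differences. Exceptions named after seeing values are Slc10a1, Slc7a11 and Slc22a8 in exposed liver and further called members given by value. Other transport genes were planned to be described by counts and median only, so the values of Abcb11, Abcc3 and Abcc4 are also outside the plan. Counts of members cover all 61, of which 2 are not reported singly here.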

Additional observations from a re-analysis of the deposited data

Results flagged for a closer look

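Of 91 groups of 4 to 10 animals screened for an animal apart from the rest, 5 were flagged by the ratio of gap to range; chance flags about 1 in 20. In ovary at 800 ppm of 1,4-DCB Slc10a2 was 320 normalized CPM in F601, against 79.6 in the nearest other exposed ovary. Slc22a2 was 46.9 normalized CPM in the kidney of F601 at 500 ppm of 1,2-DCB, against 30.1 in the nearest. Slc2a1 was 2.6 normalized CPM in the liver of F605 at 500 ppm of 1,2-DCB, against 1.4. Slc38a3 was 25.8 normalized CPM in the liver of F604 at 800 ppm of 1,4-DCB, against 31.2. Slc13a4 was 23.1 normalized CPM in control liver F8 of the 1,2-DCB study, against 32.6 in the nearest control.

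Changes that differed between liver and kidney by the test of the difference (liver minus kidney, log2) were 1.755 for Slc20a1, 2.307 for Slc2a1, -0.799 for Slc35a3, -2.17 for Slc13a4, -1.389 for Slc2a2 and -1.261 for Slc6a13 at 500 ppm of 1,2-DCB. At 800 ppm of 1,4-DCB they were -0.431 for Slc35a3, -1.155 for Slc13a4, -0.893 for Slc2a2, -1.412 for Slco1a1 and 0.602 for Slc17a3. The fitted value of 6.479 for Slc22a8 has no interpretable size, since the control livers held 0 counts.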

How the results depend on the processing

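Of 835 alternative values of the called fold changes at all concentrations, 728 kept direction and side of the threshold, 5 reversed and the others kept direction only. The reversed values were those of Slc27a2 (0.066 with library totals, 0.042 with the 20 CPM filter) and Slc35a3 (0.052 and 0.03) in liver at 500 ppm of 1,2-DCB, and of Slc35a3 at 250 ppm (0.131 with library totals). Of the alternative counts, 212 of 262 stayed within 1.5 times. The others follow, as called members. At the top concentration, 1,2-DCB heart had 2, and 1 with the 20 CPM filter, no filter, library totals or the top group alone; leaving out animals gave 1 to 2. 1,2-DCB liver had 20, and 8 with the 20 CPM filter, which tests fewer members. That filter also moved members it still tests, Slc2a2 to -0.078 among them (adjusted p = 0.666). Of the called fold changes at all concentrations that it tests, 37 kept their call, 1 was weaker and 2 reversed. 1,2-DCB lung had 1: 3 with DESeq2, 0 with library totals or the top group alone, 2 with the unused libraries, and 0 to 2 leaving out animals. 1,2-DCB ovary had 1, and 0 with the 20 CPM filter. 1,4-DCB heart had 1: 2 with DESeq2 or steps divided out, 0 with the 20 CPM filter or library totals, and 0 to 1 leaving out animals. 1,4-DCB kidney had 0: 1 with the top group alone and 2 without control F1. 1,4-DCB lung had 2: 0 with the 20 CPM filter or the unused libraries, 5 with library totals, 1 with the top group alone, and 0 to 2 leaving out animals. 1,4-DCB ovary had 6, and 3 to 8 leaving out animals (3 without F602, 8 without F601). At lower concentrations, 1,2-DCB heart had 2: 8 with library totals, 0 without F101 and F102, and 0 to 6 leaving out animals. 1,2-DCB liver had 8, and 14 with library totals. 1,4-DCB liver had 4, and 0 to 5 leaving out animals. 1,4-DCB lung had 0, and 4 with the unused libraries. Compound differences went from 0 to 2 at 1 ppm with library totals and to 1 at 10 ppm with no filter. Liver minus kidney had 18 with 1,2-DCB: 10 with the 20 CPM filter and 10 to 19 leaving out rats (10 without F604). With 1,4-DCB it had 7: 4 with library totals and 4 with the replicate block (rat), which left the other counts within 1.5 times. Members higher in a single tissue than in the others numbered 45 with TMM and 17 with the 20 CPM filter. The cause of these shifts was not tested. Depth limits members near 1 count a library, such as Slc18a2 and Slc7a11.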
